A study of Mus musculus with 20 samples.

Results

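Siglec receptors are lectins of immune cells that bind glycans ending in sialic acid, and 7 of their genes, Cd22, Cd33, Siglec1, Siglece, Siglecf, Siglecg and Siglech, were followed across the brains of 4 mouse genotypes. They were taken by gene name from a table of 54532 genes, in which each name occurred once. RNA of one brain hemisphere per library was sequenced after selection of polyadenylated RNA, with 5 libraries per genotype and 20 in all. The double knockout (DKO) lacked Glb1, which codes for the beta-galactosidase of lysosomes and acts on GM1 ganglioside, and Neu3, a sialidase of the plasma membrane with gangliosides as substrates. Glb1KO lacked Glb1 alone, Neu3KO lacked Neu3 alone, and wild-type mice (WT) were the controls. The labels of all 4 genotypes name The Jackson Laboratory as the source of healthy animals. They call the alleles only knockouts, and age, sex and strain are not given in the sources used here. Each library has its own identifier, but separate animals are not stated, so p-values measure the spread between these libraries, which may be technical.

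Total counts ran from 15162311 to 25145806 per library. Markers of neurons, astrocytes and oligodendrocytes had reads in all genotypes, as the labelled tissue requires. Glb1 averaged 4 ± 1.07 CPM (read counts scaled to the library total) in DKO and 3.38 ± 0.903 CPM in Glb1KO, against 20.5 ± 1.34 CPM in Neu3KO and 20.2 ± 1.32 CPM in WT (SD, n = 5 each). Neu3 averaged 2.98 ± 0.826 CPM in DKO, 4.06 ± 0.621 CPM in Glb1KO, 2.86 ± 0.409 CPM in Neu3KO and 3.85 ± 1.22 CPM in WT (SD, n = 5 each), with overlapping ranges, so that its counts check the Neu3 labels only weakly. The letter that opens each library's identifier, whose meaning the labels do not give, was E in all WT libraries, while DKO and Neu3KO also held W and Glb1KO also held L.

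Most Siglecs carry in their cytoplasmic tail an inhibitory tyrosine motif (ITIM) that recruits the phosphatases coded by Ptpn6 and Ptpn11 once a sialylated ligand is bound. Others, such as mouse Siglec-H, lack it and signal through the activating adaptor Tyrobp. In brain many Siglecs are found on microglia and on the macrophages of the brain borders, while that coded by Mag is found on oligodendrocytes. Gangliosides, which are sialylated lipids, are among the ligands described for the family.

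Of the 7 genes, 6 lie on chromosome 7 and Siglec1 on chromosome 2, in the GRCm38 coordinates of the deposited table. Siglecf (43351341 to 43359531, plus strand), Siglecg (43408204 to 43418358, plus strand), Cd33 (43524216 to 43544428, minus strand) and Siglece (43651070 to 43660161, minus strand) form a cluster. Cd22 (30865402 to 30880342, minus strand) and Siglech (55768178 to 55778925, plus strand) stand apart from it, and Siglec1 spans 131069220 to 131086765 on the minus strand. The members on chromosome 7 are 44 to 68.9 Mb from the targeted Neu3. All 7 had the same position in GENCODE M21. Reads of stretches shared with other genes could be assigned to either. Of the 50-base windows of the longest GENCODE transcript, 10.3% in Cd22, 5.99% in Siglecg, 0.634% in Cd33, 0.625% in Siglech and 0.235% in Siglecf were also found in another gene, and none in Siglec1 and Siglece. Siglecf and Siglecg shared windows with each other. Among the genes that share windows with Cd22 is the antisense gene Gm29439, which had 0 reads in DKO and in WT, and the reads of the others were not compared.

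The RefSeq promoter windows (GRCm38.p6) are shown for Cd33 and Siglecf, which were both higher in DKO and share a stretch of sequence, for Cd22, which differed most, and for Siglech, which was called in no comparison of counts. Each holds the 250 bases before the RefSeq start, and those of Cd33 and Cd22 lie within the longer gene spans of the deposited table. Windows were found for 6 of the 7 members, all but Siglec1. Capitals mark GGAAGT (the core read by ETS factors such as PU.1, a regulator of macrophage genes), CACGTG (the palindromic E-box) and TTCNNNGAA (read by STAT factors), searched on both strands.
Cd33, chr7:43533172-43533421, minus strand: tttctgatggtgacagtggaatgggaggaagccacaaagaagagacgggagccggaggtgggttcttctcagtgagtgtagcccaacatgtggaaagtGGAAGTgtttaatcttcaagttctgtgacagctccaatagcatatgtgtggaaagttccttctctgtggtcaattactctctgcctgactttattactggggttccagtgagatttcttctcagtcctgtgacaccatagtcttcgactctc
Siglecf, chr7:43351091-43351340, plus strand: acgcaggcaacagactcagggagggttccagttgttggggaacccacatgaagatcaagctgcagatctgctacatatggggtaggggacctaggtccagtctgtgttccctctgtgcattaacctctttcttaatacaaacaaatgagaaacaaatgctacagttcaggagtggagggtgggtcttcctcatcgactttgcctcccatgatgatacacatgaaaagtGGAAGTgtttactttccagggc
Cd22, chr7:30879029-30879278, minus strand: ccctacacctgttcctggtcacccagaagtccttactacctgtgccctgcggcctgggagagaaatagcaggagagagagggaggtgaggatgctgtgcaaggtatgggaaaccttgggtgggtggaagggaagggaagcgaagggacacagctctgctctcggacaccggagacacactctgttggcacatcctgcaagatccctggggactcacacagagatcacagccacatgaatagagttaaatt
Siglech, chr7:55767934-55768183, plus strand: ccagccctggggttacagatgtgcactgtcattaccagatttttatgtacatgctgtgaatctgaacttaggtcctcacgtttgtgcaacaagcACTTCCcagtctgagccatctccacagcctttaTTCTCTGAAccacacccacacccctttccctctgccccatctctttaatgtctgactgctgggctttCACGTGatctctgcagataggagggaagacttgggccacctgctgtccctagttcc

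The windows of Cd33 and Siglecf had a run of 16 bases in common, aaagtGGAAGTgttta, which began 157 bases before the start of Cd33 and 27 bases before that of Siglecf. The longest run in any other pair of members was 10 bases. GGAAGT was found in the windows of Cd33, Siglecf and, on the other strand, Siglech, against 19.7% of 32851 promoter windows of the same length. CACGTG and TTCNNNGAA were found in Siglech alone, against 6.02% and 7.02% of windows. The interferon response element was in none of the windows found, against 2.98% of all. Siglec1 had no window, so its promoter was not searched. The motifs were chosen with the sequences and the results in view, and a match describes letters only.

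DKO brains held more RNA of 4 of these genes than WT brains. Cd22 was raised 51.4-fold, Siglec1 13.3-fold, Siglecf 5.54-fold and Cd33 3.45-fold, while Siglece and Siglech did not pass the test and Siglecg was too low to be tested. Thus 4 of the 6 tested members were called higher in DKO vs WT, against a background of 14% of the 18336 tested genes called higher and 15.1% called lower. The median log2 fold change was 2.13 over the tested members and 0 over all tested genes. A call means an adjusted p under 0.05 in edgeR's quasi-likelihood test, adjusted over all tested genes. In bulk tissue, a change in the number of cells of a type and a change in RNA per cell cannot be told apart.

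**Figure D1:**
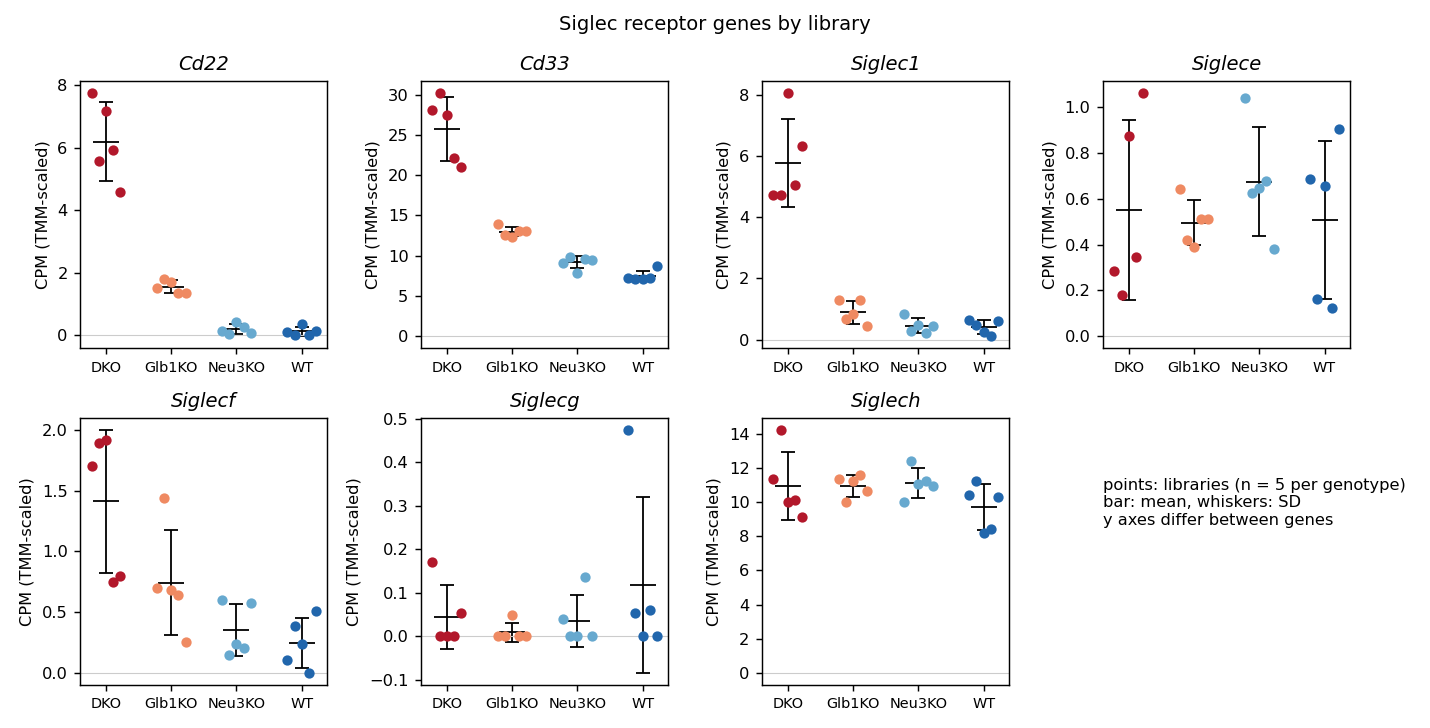
TMM-scaled CPM of the 7 Siglec receptor genes (y axes, which differ between genes) in each library of DKO, Glb1KO, Neu3KO and WT. Points are libraries, bars are means and whiskers SD (n = 5 per genotype). The DKO libraries of Cd22, Cd33 and Siglec1 lie above all others, while for Siglech the genotypes overlap and 1 DKO library, at 14.3 CPM, is the highest.

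Cd22, an inhibitory receptor best known from B cells and also described on mouse microglia as a brake on phagocytosis, was at 7.75, 5.56, 7.18, 5.92 and 4.57 CPM in DKO and at 1.52, 1.8, 1.71, 1.35 and 1.34 CPM in Glb1KO. It was at 0.12, 0.0481, 0.413, 0.271 and 0.0636 CPM in Neu3KO and at 0.105, 0, 0.357, 0 and 0.113 CPM in WT, where 2 libraries had no read. All DKO libraries were above all Glb1KO libraries, and these above all Neu3KO and WT libraries. Reads over the groups were 550 in DKO, 133 in Glb1KO, 16 in Neu3KO and 10 in WT, so the sizes of the folds against WT rest on few reads. The log2 fold change was 5.68 (SE 0.4, adjusted p = 1.81e-13) in DKO vs WT and 3.69 (SE 0.45, adjusted p = 4.47e-07) in Glb1KO vs WT. Between the Glb1-deficient genotypes, DKO was 3.99-fold higher than Glb1KO (log2 2, SE 0.28, adjusted p = 1.76e-06). The ratio of summed reads between DKO and WT was 54.6, with a 95% counting interval from 29.4 to 114. WT replicate 3 held 6 of the WT reads, and without it the log2 fold change was 6.63 in DKO vs WT and 4.63 in Glb1KO vs WT.

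Siglec1, or sialoadhesin, is an adhesion receptor of macrophages that lacks an ITIM and is induced by interferon. It was at 4.73, 4.73, 8.05, 5.06 and 6.32 CPM in DKO and at 1.28, 0.66, 0.829, 1.28 and 0.447 CPM in Glb1KO. It was at 0.842, 0.289, 0.472, 0.203 and 0.445 CPM in Neu3KO and at 0.632, 0.49, 0.238, 0.122 and 0.623 CPM in WT. DKO stood clear of the other 3 genotypes, which overlapped one another. The log2 fold change was 3.74 (SE 0.33, adjusted p = 5.52e-11) in DKO vs WT and 2.67 (SE 0.3, adjusted p = 2.5e-08) in DKO vs Glb1KO. In Glb1KO vs WT it was 1.06 (SE 0.38) and did not pass (adjusted p = 0.124).

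Siglecf, an inhibitory receptor of eosinophils and alveolar macrophages in mouse, was at 1.71, 1.89, 1.92, 0.747 and 0.796 CPM in DKO and at 0.701, 1.44, 0.683, 0.641 and 0.255 CPM in Glb1KO. It was at 0.601, 0.144, 0.236, 0.203 and 0.572 CPM in Neu3KO and at 0.105, 0.381, 0.238, 0 and 0.51 CPM in WT. The DKO libraries were above all Neu3KO and WT libraries and overlapped Glb1KO. The log2 fold change was 2.47 (SE 0.51, adjusted p = 0.000302) in DKO vs WT, 1.56 (SE 0.54, adjusted p = 0.107) in Glb1KO vs WT and 0.91 (SE 0.44, adjusted p = 0.17) in DKO vs Glb1KO, where the Glb1-deficient genotypes were not separated. With the identifier letter as a term, these became 2.9 (adjusted p = 0.000185), 0.83 (adjusted p = 0.832) and 2.07 (adjusted p = 0.0674). Siglecf therefore has a call in DKO and sizes in Glb1KO that depend on the letter.

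Cd33, whose human counterpart restrains uptake by microglia, was at 28.1, 30.2, 27.6, 22.1 and 21.1 CPM in DKO and at 13.9, 12.6, 12.3, 13.1 and 13 CPM in Glb1KO. It was at 9.1, 9.86, 7.9, 9.56 and 9.48 CPM in Neu3KO and at 7.27, 7.13, 7.15, 7.17 and 8.67 CPM in WT. The genotypes with Glb1 lost did not overlap each other or those with Glb1. The log2 fold change was 1.79 (SE 0.1, adjusted p = 1.1e-15) in DKO vs WT, 0.79 (SE 0.11, adjusted p = 2.87e-06) in Glb1KO vs WT and 0.99 (SE 0.099, adjusted p = 2.33e-09) in DKO vs Glb1KO. In Neu3KO vs WT it was 0.3 (SE 0.11), with an unadjusted p = 0.0104 and an adjusted p = 0.767 by edgeR, and the libraries of Neu3KO and WT overlapped.

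Siglech, which mouse microglia and plasmacytoid dendritic cells carry, was at 11.4, 14.3, 10, 10.1 and 9.13 CPM in DKO and at 11.4, 10, 11.3, 11.6 and 10.7 CPM in Glb1KO. It was at 10, 12.5, 11.1, 11.3 and 10.9 CPM in Neu3KO and at 10.4, 11.3, 8.22, 8.45 and 10.3 CPM in WT. All genotypes overlapped. The log2 fold change was 0.17 in DKO vs WT, with a 95% interval from -0.06 to 0.4 (adjusted p = 0.298), and 0 in DKO vs Glb1KO, with an interval from -0.23 to 0.22 (adjusted p = 0.992). These values rest on 864 to 1035 reads per genotype.

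Siglece, an inhibitory receptor of mouse myeloid cells, was at 0.285, 0.177, 0.876, 0.345 and 1.06 CPM in DKO and at 0.685, 0.163, 0.655, 0.122 and 0.906 CPM in WT. Glb1KO ran from 0.39 to 0.642 CPM and Neu3KO from 0.382 to 1.04 CPM, within the DKO range. The log2 fold change in DKO vs WT was 0.13, with a 95% interval from -0.81 to 1.06 (adjusted p = 0.877), and it rested on 50 reads in DKO and 45 in WT. Siglecg, an inhibitory receptor of B cells, had 4 reads in DKO, 1 in Glb1KO, 3 in Neu3KO and 11 in WT, of which WT replicate 1 held 9. It was too low to be tested, and no fold is given.

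**Figure D2:**
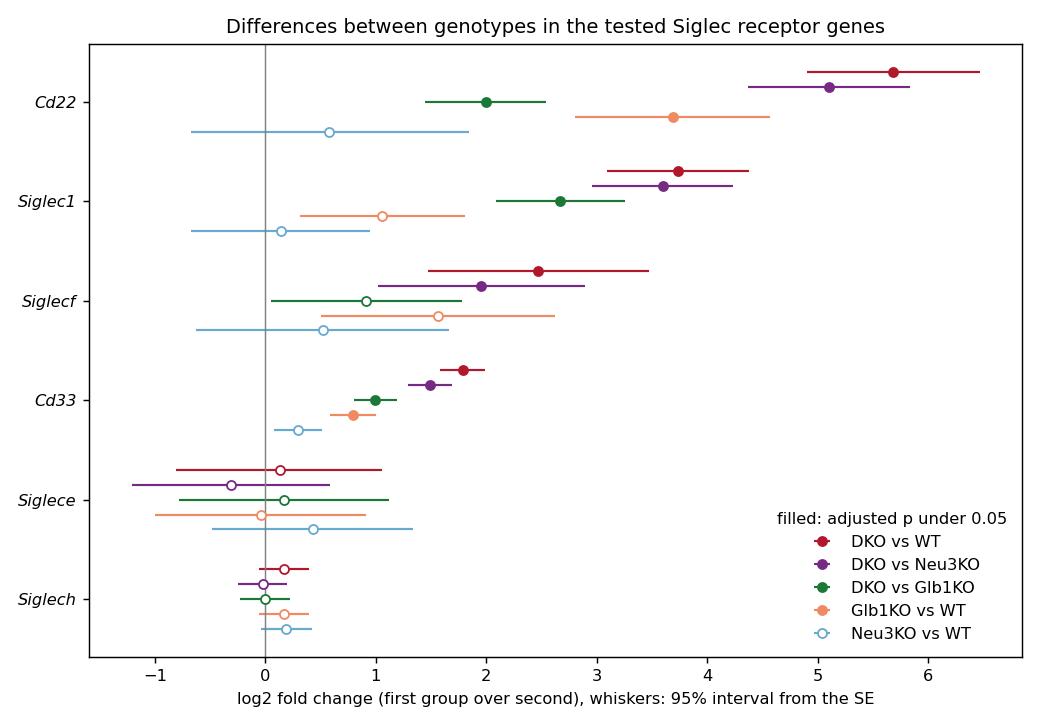
Log2 fold changes (x axis, first group over second) of the 6 tested Siglec receptor genes in 5 comparisons, with 95% intervals from the SE. Filled points have an adjusted p under 0.05. Cd22, Siglec1, Siglecf and Cd33 are filled in DKO vs WT and DKO vs Neu3KO, and no gene is filled in Neu3KO vs WT.

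In Glb1KO brains 2 of the 6 tested members were called. Cd22 was raised 12.9-fold and Cd33 1.73-fold in Glb1KO vs WT, where 1.75% of tested genes were called higher and 2.21% lower. The median log2 change was 0.93 over the tested members and 0 over all tested genes. In Neu3KO vs WT no member was called, with a median of 0.36, nor was any tested gene (0% higher, 0% lower). By edgeR, 1105 of 18336 genes had an unadjusted p under 0.05 in that comparison, among them Cd33, while DESeq2 called 2 genes and none of the members.

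Loss of Neu3 on top of Glb1 was compared as DKO vs Glb1KO. Here Cd22, Siglec1 and Cd33 were called higher, 3 of 6 tested members, against 8.41% of tested genes called higher and 7.29% lower. Loss of Glb1 on top of Neu3, DKO vs Neu3KO, gave 4 of 6, against 12.3% called higher, 12.8% lower and 25.1% in either direction. In it Cd22 was raised 34.3-fold (log2 5.1, SE 0.37, adjusted p = 5.25e-13), Siglec1 12.1-fold, Siglecf 3.88-fold (adjusted p = 0.00226) and Cd33 2.81-fold. These comparisons share the DKO libraries. Among the libraries whose identifiers begin with W, 3 of DKO and 4 of Neu3KO, the log2 changes were 4.9 for Cd22, 4.19 for Siglec1, 2.02 for Siglecf and 1.37 for Cd33, each called. That fit called 3724 genes in either direction, or 20.8% of those it tested.

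The interaction of the knockouts, the difference of DKO from Glb1KO less that of Neu3KO from WT, asked whether losing Neu3 had another effect where Glb1 was lost. It was called for Siglec1, at 2.54 on the log2 scale (SE 0.52, adjusted p = 0.00144), and for Cd33, at 0.7 (SE 0.15, adjusted p = 0.00203), or 2 of 6 tested members, against 3.96% of tested genes called higher, 2.88% lower and 6.84% in either direction. Cd22 stood at 1.41 (SE 0.77) and did not pass (adjusted p = 0.336), and it was 0.48 without WT replicate 3 and 1.93 without Neu3KO replicate 3. Its interval ran from -0.1 to 2.92, so the few WT and Neu3KO reads leave room for an interaction as large as that of Siglec1.

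Among libraries whose identifiers begin with E, which are all 5 WT libraries and 2 each of DKO and Glb1KO, the DKO vs WT changes were 5.79 for Cd22, 3.45 for Siglec1, 2.82 for Siglecf and 1.96 for Cd33 on the log2 scale, each called. That fit called 2640 genes in either direction, or 14.2% of those it tested. The authors' deposited table gives 5.77 for Cd22, 3.76 for Siglec1, 2.51 for Siglecf, 1.79 for Cd33, 0.17 for Siglech and 0.13 for Siglece for DKO over WT.

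Levels of different genes were compared on the authors' FPKM, which divides by gene length. In WT, Siglech led at 2.85 ± 0.392 FPKM and Cd33 followed at 0.953 ± 0.0845 FPKM (SD, n = 5 each), without overlap. Siglece came next, at 0.271 FPKM, followed by Siglecf, Siglec1, Siglecg and Cd22, which stood last at 0.0226 FPKM. From Siglece down, neighbours in that order overlapped. In DKO, Cd33 at 3.3 ± 0.508 FPKM and Siglech at 3.22 ± 0.586 FPKM overlapped (SD, n = 5 each), Cd22 at 1.22 ± 0.251 FPKM came after them, and Siglec1 at 0.803 FPKM, Siglecf at 0.503 FPKM and Siglece at 0.295 FPKM followed, each overlapping the next. In Glb1KO, Siglech (3.22 FPKM), Cd33 (1.66 FPKM) and Cd22 (0.304 FPKM) stood in that order without overlap, and Cd22 overlapped Siglece below it. In Neu3KO, the order was Siglech at 3.27 FPKM, Cd33 at 1.17 FPKM and Siglece at 0.362 FPKM, again without overlap, and Cd22 was sixth at 0.036 FPKM.

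The summed FPKM of the 7 genes was 9.35 ± 1.19 in DKO, 5.84 ± 0.283 in Glb1KO, 5.04 ± 0.2 in Neu3KO and 4.27 ± 0.581 in WT (SD, n = 5 each). Siglech made up 34.5 ± 3.95% of that sum in DKO, 55.2 ± 2.52% in Glb1KO, 64.9 ± 3.81% in Neu3KO and 66.9 ± 5.11% in WT. Cd33 made up 35.2 ± 1.2% in DKO, 28.4 ± 1.21% in Glb1KO, 23.3 ± 1.47% in Neu3KO and 22.6 ± 2.56% in WT. Cd22 made up 13.1 ± 2.15% in DKO, 5.21 ± 0.749% in Glb1KO, 0.727 ± 0.633% in Neu3KO and 0.545 ± 0.748% in WT, and Siglec1 8.7 ± 2.29% in DKO against 1.3 ± 0.611% in WT (SD, n = 5 each). Among these 7 genes the sum was thus led by Siglech in WT, and the shares of Cd33 and Siglech overlapped in DKO.

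**Figure D3:**
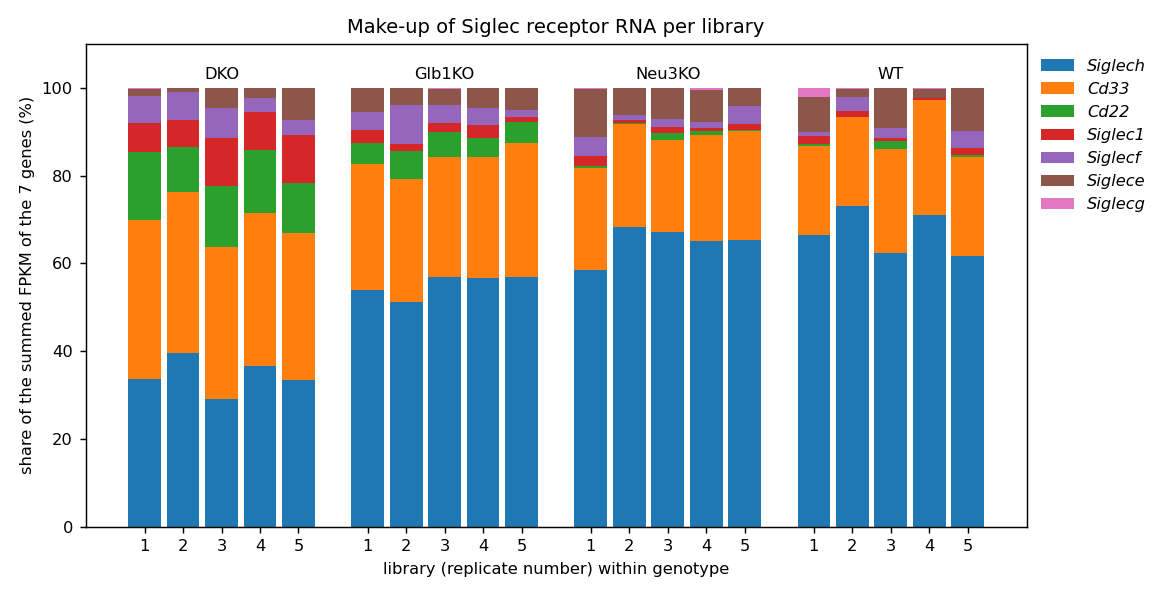
Share of the summed FPKM of the 7 Siglec receptor genes (y axis, percent) held by each gene in each library, by genotype. Siglech holds between 29 and 39.6% in the DKO libraries and between 61.6 and 73.2% in the WT libraries, and Cd22 between 10.4 and 15.4% in DKO and between 0 and 1.82% in WT.

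The log2 CPM of the members was also taken relative to the mean of 13 genes of homeostatic microglia, the resident macrophages of brain. Which cells the members' reads came from was not measured in this bulk tissue. That mean was itself higher in DKO than in WT by 0.66 on the log2 scale and in Glb1KO than in WT by 0.23 (exact permutation p = 0.00794 each, the smallest that 5 against 5 libraries allow). Relative to it, Cd22 was higher in DKO than in WT by 4.33, Siglec1 by 2.91, Siglecf by 1.57 and Cd33 by 1.11 (exact two-sided permutation p = 0.00794 and adjusted p = 0.0159 for each, with no overlap of libraries). Siglech was lower, with a mean of -1.14 in DKO and -0.65 in WT, a difference of -0.49 (exact permutation p = 0.00794, adjusted p = 0.0159). Its own log2 change was 0.17 and was not called by edgeR (adjusted p = 0.298), while the list mean rose by 0.66. With the median of the list in place of its mean the relative difference of Siglech was -0.27 and did not pass (adjusted p = 0.288). Against Glb1KO the differences in DKO were 2.17 for Siglec1, 1.49 for Cd22, 0.55 for Cd33 and -0.44 for Siglech, each with an adjusted exact p = 0.0159. With the median of the list, Siglech was at -0.25 there and did not pass (adjusted p = 0.119). In Glb1KO relative to WT they were 2.83 for Cd22 and 0.56 for Cd33 (adjusted exact p = 0.0159 each) and -0.05 for Siglech (adjusted exact p = 0.723).

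Several of these calls depended on the comparator. Relative to 20 genes of disease-associated microglia, Cd33 was lower in DKO than in WT by 1.1 on the log2 scale (a difference of -1.1, adjusted exact p = 0.0159), Siglec1 was at 0.71 (adjusted exact p = 0.173) and Siglecf at -0.64 (adjusted exact p = 0.29), neither of which passed. Relative to border-associated macrophage genes, Cd33 was at 0.48 (adjusted exact p = 0.127) and Siglecf at 0.93 (adjusted exact p = 0.163), and neither passed. In DKO relative to Glb1KO, Cd33 was at -0.6 with the disease-associated genes (adjusted exact p = 0.0159) and at 0.2 with the border-associated ones (adjusted exact p = 0.498), and Cd22 was at 0.34 with the disease-associated genes (adjusted exact p = 0.056). In Glb1KO relative to WT, Cd33 was at -0.5 with the disease-associated genes (adjusted exact p = 0.0159) and at 0.28 with the border-associated ones (adjusted exact p = 0.0992).

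**Figure D4:**
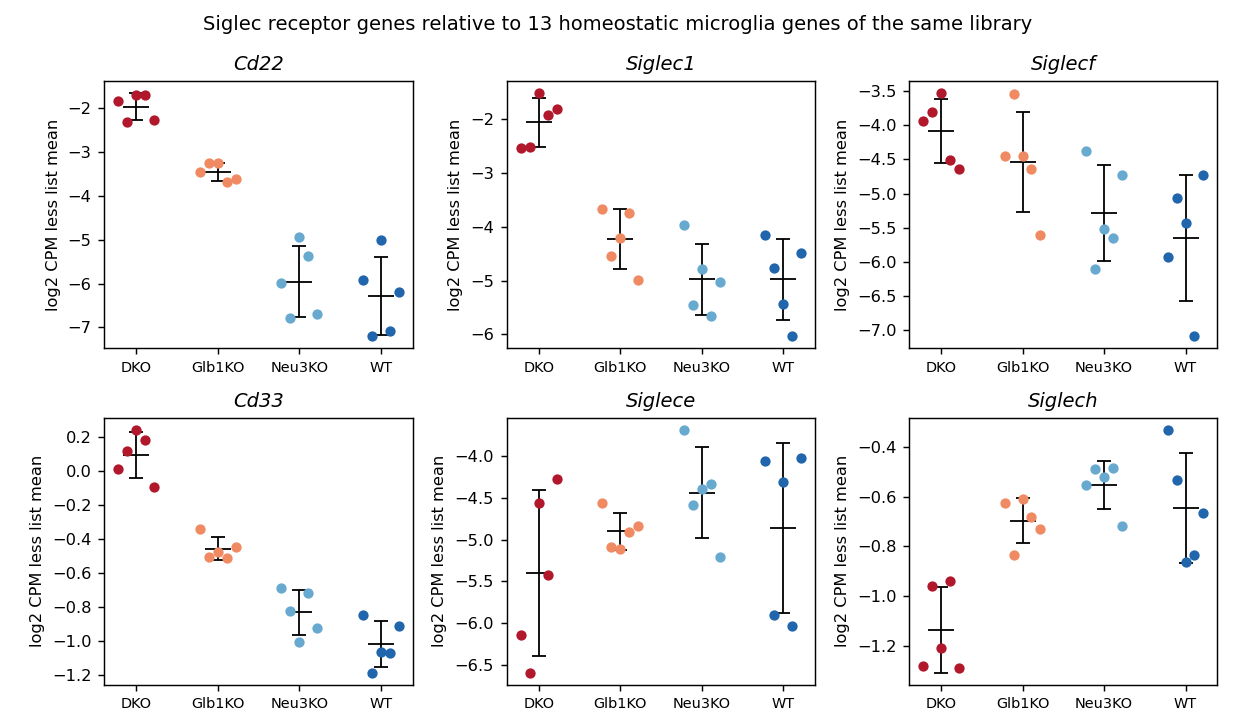
Log2 CPM of the 6 tested Siglec receptor genes less the mean log2 CPM of 13 homeostatic microglia genes in the same library (y axes, which differ between genes), by genotype. Points are libraries, bars means and whiskers SD (n = 5 per genotype). For Siglech the mean is -1.14 in DKO and -0.65 in WT.

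Markers of microglia and of other cells that carry these receptors were read in the same libraries. Over all tested genes 14% were called higher and 15.1% lower in DKO vs WT, and 1.75% and 2.21% in Glb1KO vs WT. Of the 13 homeostatic microglia genes, 8 were higher and 1 lower in DKO vs WT, with a summed level of 463 to 621 CPM in DKO and 263 to 317 CPM in WT. All 20 disease-associated microglia genes were higher, with 5760 to 6850 CPM in DKO and 1770 to 2250 CPM in WT, and 13 of the 20 were higher in Glb1KO vs WT. The part of microglial number in the members' changes was not tested. Of the 9 tested of 10 border-associated macrophage genes, 7 were called higher in DKO vs WT and none lower, with a summed level of 103 to 118 CPM in DKO and 57.4 to 65.5 CPM in WT. Mrc1 was at 6.88 CPM in DKO and 2.14 CPM in WT, Cd163 at 4.12 and 2.56 CPM, and Lyve1, which did not pass, at 1.31 and 0.798 CPM. Siglec1 is also carried by these macrophages, and their part in its rise was not tested. B cell genes were not called higher. Of 4 tested of 8, none was higher and Ighm was lower. The sum of the 8 ran from 14.2 to 21.4 CPM in DKO and from 17.3 to 25.7 CPM in WT, most of it from Ighm (13.7 and 18.9 CPM). The defining genes Cd79a and Cd79b had 13 and 32 reads in DKO against 17 and 17 in WT, while Cd22 had 550 in DKO and 10 in WT. Of 5 eosinophil genes 1 was tested, Epx, which was higher in DKO at 1.22 CPM against 0.462 CPM in WT (log2 1.38, SE 0.38, adjusted p = 0.00572). The summed level of the 5 was 0.743 to 1.54 CPM in DKO and 0.357 to 0.566 CPM in WT, Prg2 had 3 reads in DKO and 0 in WT, and Ccr3 had 0 in DKO and 2 in WT. The part of such cells in Siglecf was not tested. Of plasmacytoid dendritic cell genes, 3 of 6 were tested, none was higher and Pacsin1, which neurons express, was lower. Pacsin1, at 352 CPM in DKO and 434 CPM in WT, made up most of the list's summed level, while Ccr9 had 41 reads in DKO and 33 in WT.

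Of 7 monocyte genes 2 were tested, and Fn1, which other brain cells express too, was higher in DKO vs WT (log2 0.27, adjusted p = 0.00854). The summed level of the 7 was 110 to 132 CPM in DKO and 90.9 to 117 CPM in WT. Most of it came from Fn1 (85.1 CPM in DKO and 70.8 CPM in WT) and Vcan (34.7 and 30.5 CPM). The less abundant Ly6c2, Ccr2, Plac8 and Chil3 had 17, 30, 3 and 40 reads in DKO against 5, 37, 6 and 2 in WT. Of 8 neutrophil genes 2 were tested, S100a8 and S100a9. They were called higher in DKO, at 0.939 and 0.984 CPM, against 0.0919 and 0.265 CPM in WT. These levels rest on 83 and 87 reads in DKO and on 8 and 23 in WT, with 27 and 34 in Glb1KO and 20 and 24 in Neu3KO. The filter on low counts may have kept both genes through DKO alone, which would favour a call of higher. The summed level of the 8 neutrophil genes was 0.986 to 6.04 CPM in DKO and 0.263 to 1.09 CPM in WT. Of 9 T and NK cell genes 1 was tested, Cd4, which was not called, and the summed level was 6.16 to 9.15 CPM in DKO and 5.27 to 8 CPM in WT. Cd4, at 6.92 CPM in DKO and 5.9 CPM in WT, made up most of that sum. The untested Cd3e, Cd3d, Cd3g, Cd8a, Nkg7 and Klrb1c had 35, 4, 5, 13, 9 and 5 reads in DKO against 11, 0, 0, 3, 1 and 0 in WT. Cd8b1 and Ncr1, also untested, were not higher, with 1 and 1 reads in DKO against 1 and 2 in WT. The part of these cells in the members' changes was not tested.

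The genes whose course over the 20 libraries lay nearest to that of a member were found by the root mean square distance of log2 CPM, each less its WT mean, among protein-coding genes of at least 1 CPM. For Cd22 they were the lysozyme gene Lyz2 (distance 0.58), the inhibitory receptor gene Lilrb4a (0.79) and its relative Lilr4b (0.98). For Cd33 they included B2m, the light chain of class I MHC (0.14), and Hpgds, a prostaglandin synthase (0.2). For Siglec1 they were the SLAM family receptor gene Cd84 (0.53), the oncostatin M receptor gene Osmr (0.54) and the NADPH oxidase subunit gene Cyba (0.55). For Siglecf they were Ly86 (0.58), Renbp (0.62) and Aif1 (0.64), and for Siglech Ikzf4 (0.12), Stk10 (0.14) and Mdm2 (0.14). For Siglece, Gmnn (0.5), Ttc39a (0.52) and Lmod1 (0.53) were nearest.

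No tested neighbour on the chromosome was called higher in DKO vs WT, apart from Siglecf beside Siglecg. Mag, the gene of myelin-associated glycoprotein and itself a Siglec, of oligodendrocytes, lies 18.8 kb from Cd22 and was lower in DKO than in WT (log2 -0.94, SE 0.073, adjusted p = 1.42e-11), with means of 116 and 222 CPM, and lower in Glb1KO (log2 -0.9, adjusted p = 3.58e-10). All 5 oligodendrocyte marker genes were lower as well in both comparisons, where 15.1% (DKO vs WT) and 2.21% (Glb1KO vs WT) of all tested genes were called lower. Next to Siglec1, Hspa12b was lower (log2 -0.4, adjusted p = 0.0136) and Adam33 did not pass (log2 0.39, adjusted p = 0.132). The genes beside Cd33, Siglece, Siglecf and Siglech that were tested and are no members, Zfp658, Ctu1, Zfp715, Luzp2 and Tubgcp5, lay between -0.32 and -0.04 on the log2 scale and were not called.

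Of 14 tested of 16 genes that signal with ITIM receptors or with the activating adaptors, 11 were higher in DKO vs WT and none lower, with a median log2 change of 1.28. Over all tested genes 14% were called higher and 15.1% lower there. Tyrobp, the adaptor of Siglec-H, was at 48.5 CPM in DKO and 4.53 CPM in WT (log2 3.43, SE 0.16, adjusted p = 1.55e-14), while Siglech was not called. The adaptor gene Fcer1g was at 2.47 (SE 0.12), Ptpn6, the phosphatase that binds ITIMs, at 2.17 (SE 0.16, adjusted p = 9.07e-13) and the lipid phosphatase gene Inpp5d at 1.19 (SE 0.092). Ptpn11, the other phosphatase that binds ITIMs and a gene of many cell types, was at -0.01 (SE 0.048, adjusted p = 0.88), and the adaptor gene Grb2 at -0.08 (SE 0.06, adjusted p = 0.36). In Glb1KO vs WT 6 of the 14 rose, with Tyrobp at 1.73 and Ptpn6 at 0.76, and Ptpn11 fell by a log2 change of -0.17 (adjusted p = 0.0373). Of all tested genes, 1.75% were called higher and 2.21% lower in Glb1KO vs WT.

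Of 12 other ITIM receptor genes of myeloid cells 11 were tested, and 8 rose in DKO vs WT and none fell, with a median of 1.1. The shares over all tested genes were 14% higher and 15.1% lower. They included Lilrb4a (log2 5.93, SE 0.33), the Fc receptor gene Fcgr2b (4.09, SE 0.13, adjusted p = 7.11e-23), Pirb (3.35, SE 0.36), Cd300a (1.83, SE 0.17) and Sirpa (0.2, SE 0.044). In Glb1KO vs WT 4 of 11 rose, against 1.75% of all tested genes, and in DKO vs Glb1KO 6 of 11, against 8.41%.

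Genes that build or remove the sialic acid ligands were counted next. Of 19 tested of 20 sialyltransferase genes, 1 rose and 6 fell in DKO vs WT, with a median of -0.14, where 14% of all tested genes were called higher and 15.1% lower. St6gal1, which makes the linkage that CD22 binds, was at 34.6 ± 2.05 CPM in DKO and 24 ± 1.83 CPM in WT (SD, n = 5 each), a log2 change of 0.52 (SE 0.08, adjusted p = 4.19e-06). St8sia5 (-0.5, SE 0.085), St3gal1 (-0.5, SE 0.094), St6galnac5 (-0.27) and St3gal2 (-0.14) were lower, and St8sia3 (-0.14, adjusted p = 0.105) was not called. In Glb1KO vs WT none of the 19 rose and 1 fell, where 1.75% of all tested genes were called higher and 2.21% lower.

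Of 8 tested genes of sialic acid synthesis, activation and turnover, 2 rose and 1 fell in DKO vs WT. Over all tested genes 14% were called higher and 15.1% lower, so these counts are near the general rate. Npl, which breaks down free sialic acid, was at 1.31 (SE 0.16, adjusted p = 4.02e-08) and Nans, a sialic acid synthase, at 0.43 (SE 0.11), while the phosphatase gene Nanp was at -2.45 (SE 0.66, adjusted p = 0.00631), with 22 reads in DKO and 120 in WT. Nanp averaged 0.246 ± 0.114 CPM in DKO and 1.4 ± 1.09 CPM in WT (SD, n = 5 each), so its WT libraries varied widely. Gne, Cmas and Casd1 lay between -0.08 and 0.05 and were not called. Of the sialidases, Neu1, the lysosomal one, was higher at 61.7 CPM in DKO and 62.4 CPM in Glb1KO, against 46.2 CPM in WT (log2 0.42, SE 0.062 in DKO and 0.43 in Glb1KO, adjusted p = 2.93e-06 and 9.77e-06), and Neu2 was lower in DKO (-0.56, adjusted p = 0.0484). Neu4 was not called. Of proteins described as carriers of Siglec ligands, 3 of 5 tested rose in DKO, which were Lgals3bp (2.89, SE 0.098, adjusted p = 8.99e-21), Ptprc (1.85, SE 0.16) and Clu (0.89, SE 0.059), and Cd24a (0.25, adjusted p = 0.219) and Selplg (-0.47, adjusted p = 0.0623) did not pass.

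**Figure D5:**
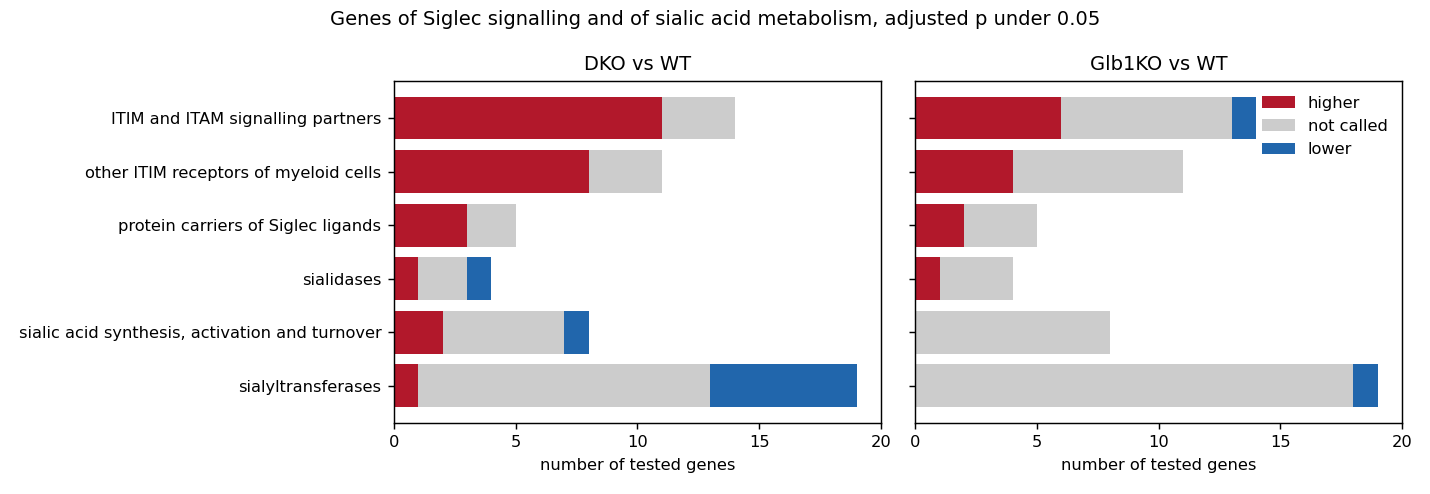
Number of tested genes (x axis) called higher, not called or called lower at an adjusted p under 0.05 in each of 6 gene lists, in DKO vs WT and in Glb1KO vs WT. In DKO vs WT 11 of 14 signalling partners are higher and none lower, while 1 of 19 sialyltransferases is higher and 6 are lower, where 14% of all tested genes were higher and 15.1% lower.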

How the data were processed

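Raw read counts per gene were deposited by the authors, with no normalization, for RNA of 20 brain libraries, as was a table of FPKM of the same libraries, per the file headers. Their comparison of DKO with WT gives log2 fold changes and p-values, deposited beside the counts. Tools named in the submitters' processing notes are DESeq2 1.20.0, featureCounts 1.5.0-p3, fastp and HISAT2 2.0.5, and the genome is given as GRCm38 or mm10, with no roles, order or strand setting, so antisense reads could not be told apart.

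Counts of all 20 libraries were scaled with TMM factors and fitted by genotype with edgeR 4.0.16 (R 4.3.3, limma 3.58.1), using the robust quasi-likelihood test after filterByExpr, which kept 18336 of 54532 genes. Benjamini-Hochberg adjustment ran over all of them, with a threshold of 0.05. SE were derived from the F statistic and 95% intervals from the SE. CPM were TMM-scaled. Log2 CPM used a prior count of 2. Differences relative to marker lists were tested with exact permutation tests over 252 arrangements and adjusted over genes and comparisons. Counting intervals cover counting error only. The fit was tested on simulated counts. Alternatives were RLE factors, other filters, DESeq2 1.42.0, the replicate number or identifier letter as a term, subsets of libraries and each library left out. The subset of W libraries was chosen after seeing the data.

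Beside the members, the genes named from each list are the 4 with the smallest adjusted p in DKO vs WT and the 2 with the highest CPM. From marker lists the first 3 genes may be named too. Cd24a, Chil3, Cd8a, Cd8b1, Nkg7, Klrb1c, Ncr1 and the chromosomal neighbours fall outside this rule and were named after their values were seen. For each member up to 3 nearest genes by course over the libraries are given. A few items that these rules select are not reported here. The members, lists and rule were chosen with earlier results of these data known. Replicates of a genotype differed by more than sampling noise.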

Additional observations from a re-analysis of the deposited data

Results flagged for a closer look

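Within genotypes, 3 of 28 sets of 5 libraries held a library far from the others, where chance gives about 1 in 20 for values that vary continuously. That rate does not hold for Siglecg, which had 0 or 1 read in the other libraries of both sets. Cd33 in WT replicate 5 was at 8.67 CPM, while the other WT libraries lay between 7.13 and 7.27 CPM. Siglecg in WT replicate 1 was at 0.474 CPM, from 9 reads, while the other WT libraries lay between 0 and 0.0608 CPM. Siglecg in Glb1KO replicate 3 was at 0.0488 CPM, from 1 read, with 0 in the others.

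The effect of losing Neu3 differed between a background with Glb1 lost and one with Glb1 present for Cd33, by 0.7 on the log2 scale, and for Siglec1, by 2.54, both by the interaction term of edgeR (adjusted p = 0.00203 and 0.00144).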

How the results depend on the processing

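The number of members called stayed within 1.5 times of its value in each comparison under each alternative run. Leaving out a library gave 4 in DKO vs WT, 2 in Glb1KO vs WT, 0 in Neu3KO vs WT, 3 in DKO vs Glb1KO, 4 in DKO vs Neu3KO and 2 in the interaction. With the replicate number as a block the counts were the same, 4, 2, 0, 3, 4 and 2, with Cd22 at 5.71 in DKO vs WT. The numbers did not pair the samples, since 0 of 30 same-numbered pairs had a correlation of deviations over 0.1 (-0.13 to 0.06). The background moved more: with the identifier letter as a term 3363 genes were called in DKO vs WT, against 5323, 315 against 726 in Glb1KO vs WT and 1203 against 2879 in DKO vs Glb1KO, and with E libraries alone 2640, 321 and 936. In Neu3KO vs WT, where edgeR called 0, 3 genes were called from these groups fitted alone, 26 with no filter and 2 by DESeq2. A filter of at least 1 CPM on the mean removed Siglecf, and with no filter it was called in Glb1KO vs WT (1.57, adjusted p = 0.0403).

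Relative to homeostatic microglia genes, 5 members differed in DKO vs WT, with Siglech lower, and 2 in Glb1KO vs WT. With border-associated macrophage genes in place of the homeostatic ones the counts were 3 and 1. The share of all genes that differ on such relative measures was not computed. With disease-associated microglia genes, Cd33 reversed to -1.1 in DKO vs WT, -0.5 in Glb1KO vs WT, -0.6 in DKO vs Glb1KO and -1.33 in DKO vs Neu3KO, and Siglecf to -0.64 in DKO vs WT, which did not pass, and -1.05 in DKO vs Neu3KO (adjusted exact p = 0.0446). The median log2 change in DKO vs WT was 2.08 over those genes and 0.72 over the homeostatic ones. Leaving out a library gave 2 to 3 members in Glb1KO vs WT and 4 to 5 in DKO vs Neu3KO, as Siglecf then passed. Depth limits Siglecg and Siglece.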
